A study of Mus musculus with 20 samples.

Results

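Immediate early genes are the first genes that a cell transcribes after a growth factor, a stress or an antigen reaches it. The 10 followed here were Fos, Fosb, Jun, Junb, Egr1, Egr2, Ier2, Dusp1, Atf3 and Nr4a1. They were found by their mouse gene symbols in a deposited expression table of 25869 genes, and all 10 had a row. RNA had been sequenced from 20 mouse libraries of a study that built a CRISPR activation (CRISPRa) mouse. This mouse, dCas9a-SAM, carries a dead Cas9 fused to the VP64 activator together with MS2-p65-HSF1 in the Rosa26 locus under the CAG promoter. A single guide RNA (sgRNA) can then switch on a chosen gene, and the study describes the components as expressed across tissues.

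The 10 fibroblast libraries came from mouse embryonic fibroblasts (MEFs) grown from embryos. They comprised 2 WT MEF libraries, 2 libraries of dCas9a-SAM KI/+ MEFs without an sgRNA (no-guide MEFs), 2 of the same knock-in MEFs with a non-targeting control sgRNA (sgNT MEFs) and 4 of the knock-in MEFs with sgBcl-2, which is directed at the gene of the pro-survival protein BCL-2. The knock-in MEFs were numbered as 2 lines, and the sgBcl-2 libraries were 2 of each line, for which the labels do not say whether they hold different guides or are repeat cultures. The lymphoma libraries were 4 IgM-positive lines (numbered 1 to 4), 2 IgM-negative lines (numbered 1 and 2) and 2 primary IgM-positive tumours, all of them Eµ-Myc/dCas9a-SAM/sgBcl-2. These lymphomas arose in irradiated female recipients from foetal liver stem and progenitor cells that had received the guide, with MYC driven by the immunoglobulin heavy chain enhancer. No lymphoma library without sgBcl-2 was among them. The tumours came from the mice of IgM-positive lines 1 and 2, but the labels give opposite mouse numbers in different places, so primary tumour 1 is not paired here with line 1. The 2 pre-B acute lymphoblastic leukaemias (preB-ALL) are titled P190CreERLSLErg and P190RagCreErg, and are called CreERLSLErg and RagCreErg below. Both carried BCR-ABL1 (p190 T/+) and no dCas9a-SAM cassette, and were grown in IL7. For them the RNA was prepared with another kit, and their label names carry a flow cell code, which those of the other libraries do not. Library 1 and library 2 of a knock-in MEF group below mean MEF line 1 and line 2, whereas WT MEF 1 and 2 share only the number with them.

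The members act in 4 roles. Fos, Fosb, Jun and Junb encode subunits of AP-1, a dimeric transcription factor in which a Fos protein needs a Jun protein as partner, whereas Jun proteins can also pair with each other. Egr1 and Egr2 encode zinc finger transcription factors, and Nr4a1 encodes the orphan nuclear receptor NUR77, which lymphocytes induce when their antigen receptor is engaged. Atf3 encodes a stress-induced bZIP factor, Ier2 a small nuclear protein, and Dusp1 a phosphatase that switches MAP kinases off. Fibroblasts induce these genes within minutes of serum addition through serum response factor (SRF) with its ETS partners and through CREB, and the transcripts decay quickly.

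The bases upstream of 4 members that were higher with sgBcl-2 than with sgNT in MEFs are shown, because they hold letters that SRF, CREB or EGR proteins are known to bind. Each is the 250 bases before a RefSeq transcription start in GRCm38.p6, and none of them overlaps an exon of GENCODE M21. Capitals mark the matched letters.
Fos (chr12:85473640-85473889, + strand): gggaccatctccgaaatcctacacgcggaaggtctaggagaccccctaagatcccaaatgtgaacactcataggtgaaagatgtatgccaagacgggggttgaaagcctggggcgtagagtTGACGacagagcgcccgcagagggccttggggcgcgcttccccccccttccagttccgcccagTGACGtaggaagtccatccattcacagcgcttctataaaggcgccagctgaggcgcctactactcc
Junb (chr8:84978749-84978998, - strand): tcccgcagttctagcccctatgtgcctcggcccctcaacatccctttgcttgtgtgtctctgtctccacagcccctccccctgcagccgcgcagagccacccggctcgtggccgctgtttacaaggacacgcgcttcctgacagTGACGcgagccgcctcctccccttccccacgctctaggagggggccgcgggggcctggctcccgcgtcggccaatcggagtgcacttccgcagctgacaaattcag
Egr2 (chr10:67537619-67537868, + strand): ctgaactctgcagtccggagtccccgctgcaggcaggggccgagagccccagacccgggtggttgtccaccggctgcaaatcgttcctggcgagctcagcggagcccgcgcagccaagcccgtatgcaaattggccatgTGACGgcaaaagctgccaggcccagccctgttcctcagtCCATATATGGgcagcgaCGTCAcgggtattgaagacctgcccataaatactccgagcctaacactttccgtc
Nr4a1 (chr15:101266596-101266845, + strand): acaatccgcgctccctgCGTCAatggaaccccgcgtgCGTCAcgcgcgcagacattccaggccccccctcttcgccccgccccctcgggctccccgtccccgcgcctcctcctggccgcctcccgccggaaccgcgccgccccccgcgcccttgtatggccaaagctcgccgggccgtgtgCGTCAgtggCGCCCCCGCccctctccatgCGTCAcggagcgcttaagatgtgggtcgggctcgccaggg

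Both strands were searched for the SRF-binding CArG box, the CREB-binding CRE (TGACGTCA), the CRE core (TGACG, which the whole CRE contains on both strands), the AP-1 site (TGANTCA) and the EGR site (GCGNGGGCG). Of the 10 members, 8 had an upstream sequence in the RefSeq table used here, which held none for Egr1 and Ier2. The core was present in 7 of the 8, in Fos at bases -129 to -125 and -66 to -62 before the start, and in 17.8% of 32851 promoters of the same length. Jun was the member without it, and it was among those higher with sgBcl-2 than with sgNT. Fosb, Dusp1 and Atf3 held the core and were not called in that comparison. The CArG box was found in Egr2, in the printed window at bases -72 to -63, against 1.47% of all promoters. Egr2 had several windows and a match in any of them was counted, whereas the percentages are per window. The whole CRE was found in Dusp1 (1.55% of promoters), the EGR site in Fosb and Nr4a1 (4.7%), and the AP-1 site in no member (6.75%). These matches are descriptions of the letters in these windows. Other forms of these sites and bases further upstream were not searched.

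Depth ranged from 12474885 to 26678417 reads per library, and the members together took between 0.0111% and 0.134% of the reads. The targeted gene Bcl2 was at 13.4 and 13.7 counts per 1000000 reads (CPM) in the sgNT MEFs, at 67.9, 48.6, 46.8 and 71.8 in the sgBcl-2 MEFs, and between 99.4 and 244 in the lymphoma libraries. The summed level of 12 fibroblast markers was at least 8400 CPM in every MEF library, and 8 B cell markers summed to at least 1210 CPM in every lymphoma and leukaemia library. WT MEF 2 stood apart from the other MEFs, with 8400 CPM of fibroblast markers against 18697 in WT MEF 1, and 245 against 6.74 CPM of 11 myeloid markers. Comparisons between groups that include the WT MEFs are therefore also given without it. The preB-ALL libraries held 2448 and 5796 CPM of fibroblast markers against at most 88.2 in the lymphoma lines, and all 15 mitochondrial genes were at 0 in them.

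**Figure D1:**
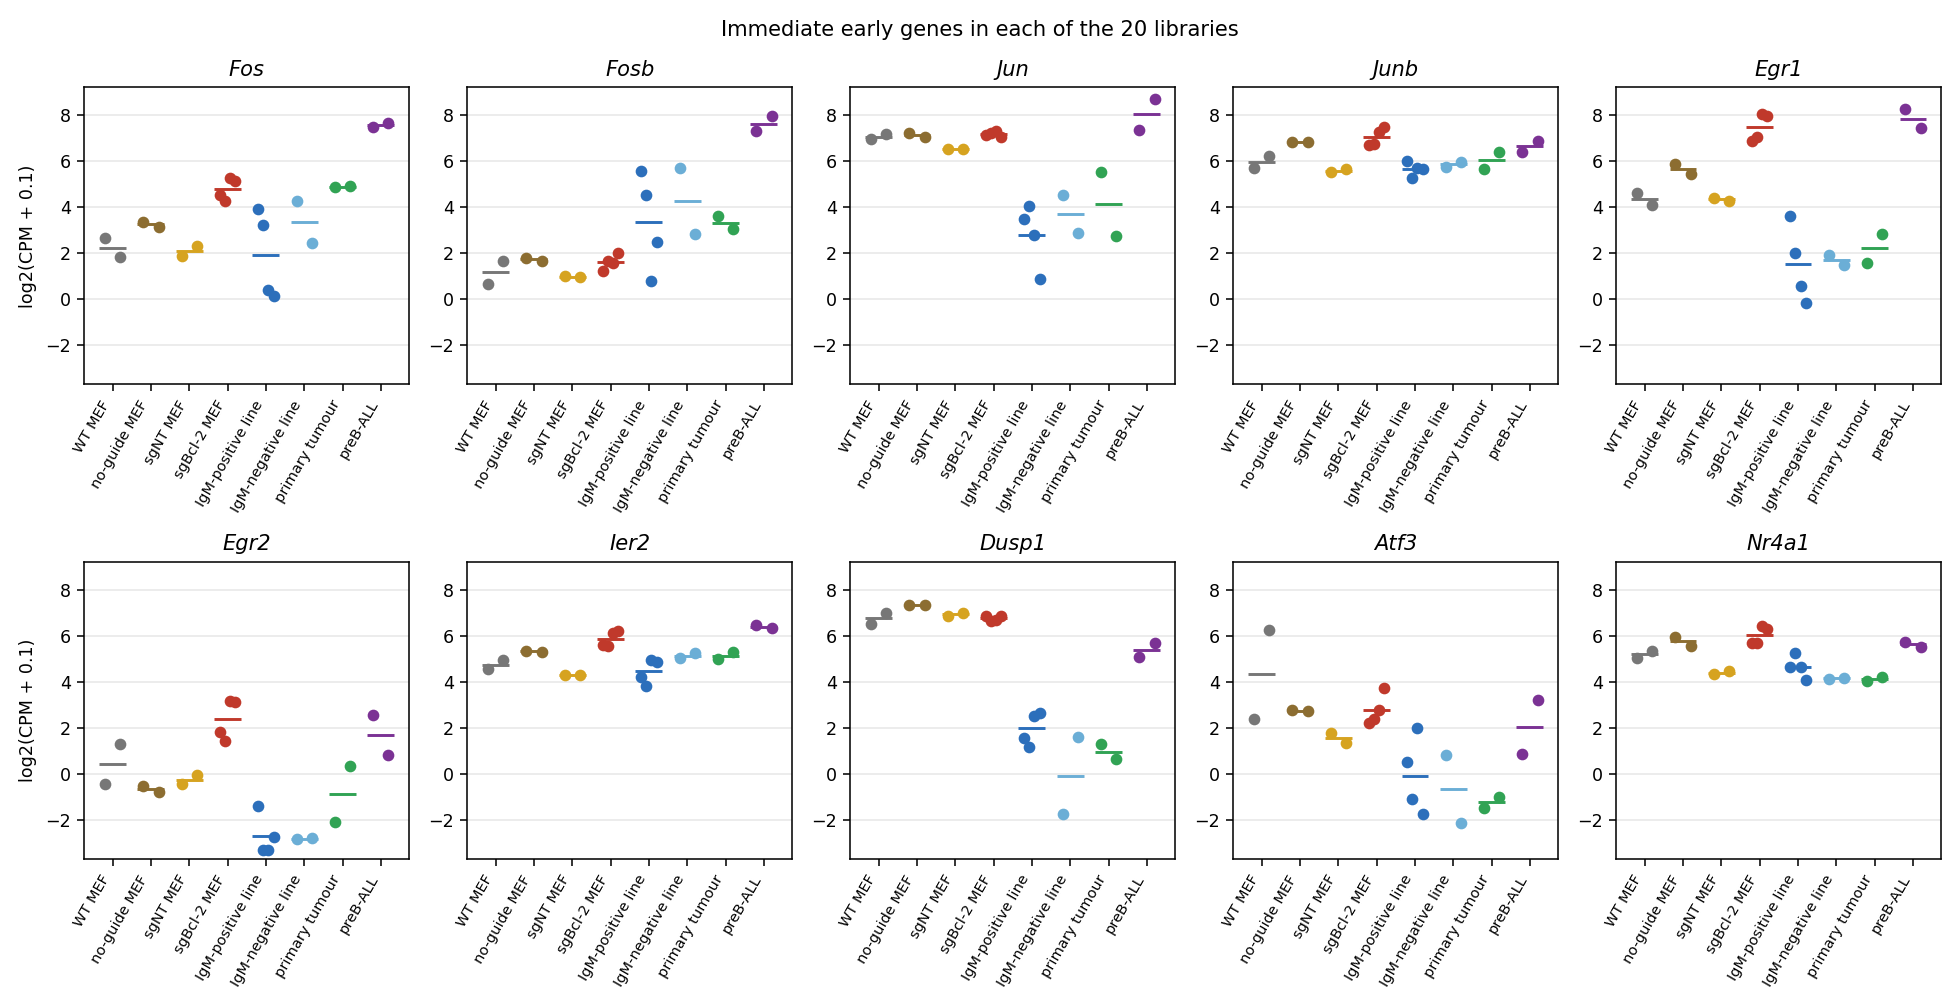
Each panel shows 1 gene, with log2(CPM + 0.1) on the vertical axis and the 8 groups on the horizontal axis; points are the 20 libraries and bars are group means of the log2 values. Fos, Fosb and Jun are highest in preB-ALL, Egr1 and Egr2 are higher in the sgBcl-2 MEFs than in the other MEF groups, and Dusp1 lies at 92 CPM or more in all MEFs and at 6.08 CPM or less in all lymphoma lines and tumours.

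The order of the levels differed between members. For Fos, preB-ALL was highest at 190.5 CPM (180 and 201), followed by the primary tumours at 29.3 and the sgBcl-2 MEFs at 28.8 ± 9.4 (SD, n = 4), whose ranges overlapped, and the sgNT MEFs were lowest at 4.24. For Egr1, preB-ALL (237 CPM) and the sgBcl-2 MEFs (189 ± 77.8, SD, n = 4) overlapped at the top, followed without overlap by the no-guide MEFs (50.7), and the lymphoma lines and tumours overlapped at the bottom. Jun and Ier2 were highest in preB-ALL, Dusp1 in the no-guide MEFs, Junb, Egr2 and Nr4a1 in the sgBcl-2 MEFs, and Atf3 in the WT MEFs through WT MEF 2 alone. For Junb each group overlapped its neighbour in the order, so that the 8 groups formed no separate steps.

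The first comparison among MEFs was of the control guide with no guide. Transduction with the guide vector and any other difference in handling between these groups cannot be told apart. Of the 10 members, 9 were lower in sgNT MEFs than in the no-guide MEFs of the same lines, where 20.9% of 14655 tested genes were lower (limma on log2 of scaled CPM + 0.1, Benjamini-Hochberg adjusted p under 0.05). The median log2 fold change of the 10 was -1.10, against 0.00 over all genes. Fibroblast markers moved with this comparison. Of the 12, 9 were higher in the sgNT than in the no-guide MEFs and 1, Fn1, was lower, with Dcn at 12.7 and 14.8 CPM without a guide against 129 and 79.7 with sgNT, and Thy1 at 186 and 173 against 861 and 709. The same 9 were higher in the sgBcl-2 than in the no-guide MEFs, and 2 (Dcn and Fbn1) in the sgBcl-2 than in the sgNT MEFs. Their part in the members' levels was not tested. In bulk RNA of this kind, fewer cells of a type and less RNA per cell cannot be told apart.

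Among the AP-1 genes, Junb was at 114 and 112 CPM in the no-guide MEFs and at 45.6 and 49.6 in the sgNT MEFs. The groups did not overlap, and Junb fell by 1.27 on the log2 scale (SE 0.08, limma adjusted p = 3.78e-05), the smallest p among the members. Fos was at 10.3 and 8.69 without a guide and at 3.56 and 4.92 with sgNT, a log2 fold change of -1.17 (SE 0.20, adjusted p = 0.0032). Jun went from 149 and 131 to 90.4 and 92.2 (-0.63 ± 0.08, SE, adjusted p = 0.00073). Fosb was low in both, with 3.36 and 3.1 against 1.9 and 1.86 CPM, and its call (adjusted p = 0.021) was lost with DESeq2 and whenever any 1 of the 4 libraries was left out, with adjusted p-values of up to 0.24 over the alternatives.

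Of the other roles, Egr1 was at 58.3 and 43 CPM without a guide and at 20.8 and 19.3 with sgNT (log2 fold change -1.33, SE 0.13, adjusted p = 0.00027). Nr4a1 had 61.4 and 47.2 against 19.9 and 22, with the largest fold change of the 10 (-1.37, SE 0.13). Ier2 had 40.5 and 38.7 against 19.5 and 19.7, and Atf3 6.64 and 6.58 against 3.31 and 2.44. Neither gene overlapped between the groups, and the log2 fold changes were -1.02 for Ier2 and -1.20 for Atf3. The phosphatase gene Dusp1 changed least among those called, from 163 and 160 to 114 and 128 CPM (-0.44, SE 0.08, adjusted p = 0.0052). Egr2 was the exception, at 0.603 and 0.473 against 0.633 and 0.869 CPM, which is 11 to 21 reads per library, and did not pass the test (0.40, SE 0.35, adjusted p = 0.40). When all 10 MEF libraries shared 1 estimate of the spread, 4 members were lower, as were 2.78% of genes, and when WT MEF 2 was left out of that fit 8 were, with 17.3% of genes.

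The second comparison was of the Bcl-2 guide with the control guide. Of the 10 members, 7 rose in sgBcl-2 MEFs over sgNT MEFs, where 6.61% of 14676 tested genes were higher, and none was called lower, where 4.24% were. The median log2 fold change of the 10 was 1.60, against -0.01 over all genes. Without a scaling factor the same number of members rose, while 4.84% of genes were higher and 7.75% lower and the median over all genes was -0.10. The sgNT libraries are those of the comparison above, so the 2 comparisons share them and a low value in sgNT enters both.

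Egr1 had the largest change. It was at 20.8 and 19.3 CPM in the sgNT MEFs, at 115 and 130 in the sgBcl-2 libraries of MEF line 1 and at 266 and 246 in those of line 2. All 4 sgBcl-2 libraries lay above every other MEF library, and the log2 fold change over sgNT was 3.23 (SE 0.33, limma adjusted p = 0.0023), 9.35-fold. Its relative Egr2, whose window above holds the CArG box, was at 0.633 and 0.869 CPM in sgNT and at 3.46, 2.56, 8.77 and 8.66 with sgBcl-2 (68 to 217 reads). The increase of 2.71 (SE 0.50, adjusted p = 0.015) lost its call with limma-voom, when either sgNT library was left out and with all 10 MEFs in the fit (adjusted p = 0.11), but not with WT MEF 2 left out of that fit (adjusted p = 0.0065).

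In the AP-1 family, Fos went from 3.56 and 4.92 CPM with sgNT to 22.7, 19.1, 38.4 and 35.2 with sgBcl-2, a log2 fold change of 2.78 (SE 0.29, adjusted p = 0.0023). Junb reached 102, 105, 152 and 178 from 45.6 and 49.6, a log2 fold change of 1.55 (SE 0.22, adjusted p = 0.0067). Its adjusted p was 0.083 without sgNT MEF 1 and 0.056 without sgNT MEF 2. Jun was at 138.2, 150, 160 and 131 against 90.4 and 92.2, the smallest change among those called (0.75, SE 0.08, adjusted p = 0.0023). Fosb stayed low at 2.2, 3.09, 2.91 and 3.94 CPM and did not pass the test (0.72, SE 0.24, adjusted p = 0.094).

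Ier2 had 48, 47.4, 69.1 and 73.6 CPM with sgBcl-2 against 19.5 and 19.7 with sgNT, and rose by 1.66 (SE 0.19, adjusted p = 0.0031). Nr4a1 had 50.9, 50.8, 86.3 and 77.3 against 19.9 and 22, and rose by 1.71 (SE 0.22, adjusted p = 0.0048), a call that was lost without sgNT MEF 1 (adjusted p = 0.064). Atf3 was at 4.45, 5.08, 6.71 and 13.2 against 3.31 and 2.44, above both sgNT libraries in 4 of 4, without passing the test (1.29, SE 0.40, adjusted p = 0.072). Dusp1 was at 115, 100, 101 and 114 against 114 and 128 CPM, and its log2 fold change was -0.08 (SE 0.09, adjusted p = 0.62). The 2 sgBcl-2 libraries of a line share their MEF line. When both libraries of a line were added together and the MEF line was taken as a replicate block, 8 members were higher, Atf3 in addition (adjusted p = 0.025), as were 11% of genes, and the count of all genes called moved from 1592 to 2654.

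Because sgNT was the low group, the sgBcl-2 MEFs were also set against the no-guide MEFs, a comparison added after the values had been seen. There 4 members were higher (Fos, Egr1, Egr2 and Ier2), where 19.8% of 14727 tested genes were higher, and 1 was lower (Dusp1), where 19.5% were lower. Without a scaling factor these counts were again 4 and 1, where 15.9% and 25.1% of genes were. The log2 fold changes were 1.62 (SE 0.27, adjusted p = 0.0022) for Fos, 1.89 (SE 0.34, adjusted p = 0.0032) for Egr1, 3.10 (SE 0.50, adjusted p = 0.0018) for Egr2 and 0.63 (SE 0.19, adjusted p = 0.028) for Ier2, whose call was lost when either no-guide library or sgBcl-2 MEF 2.1 was left out. Dusp1 fell by 0.51 on the log2 scale (SE 0.08, adjusted p = 0.0016). The other 5 lay near the no-guide level, with log2 fold changes of -0.04 for Fosb, 0.12 for Jun, 0.28 for Junb, 0.09 for Atf3 and 0.33 for Nr4a1, and adjusted p-values between 0.29 and 0.91.

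**Figure D2:**
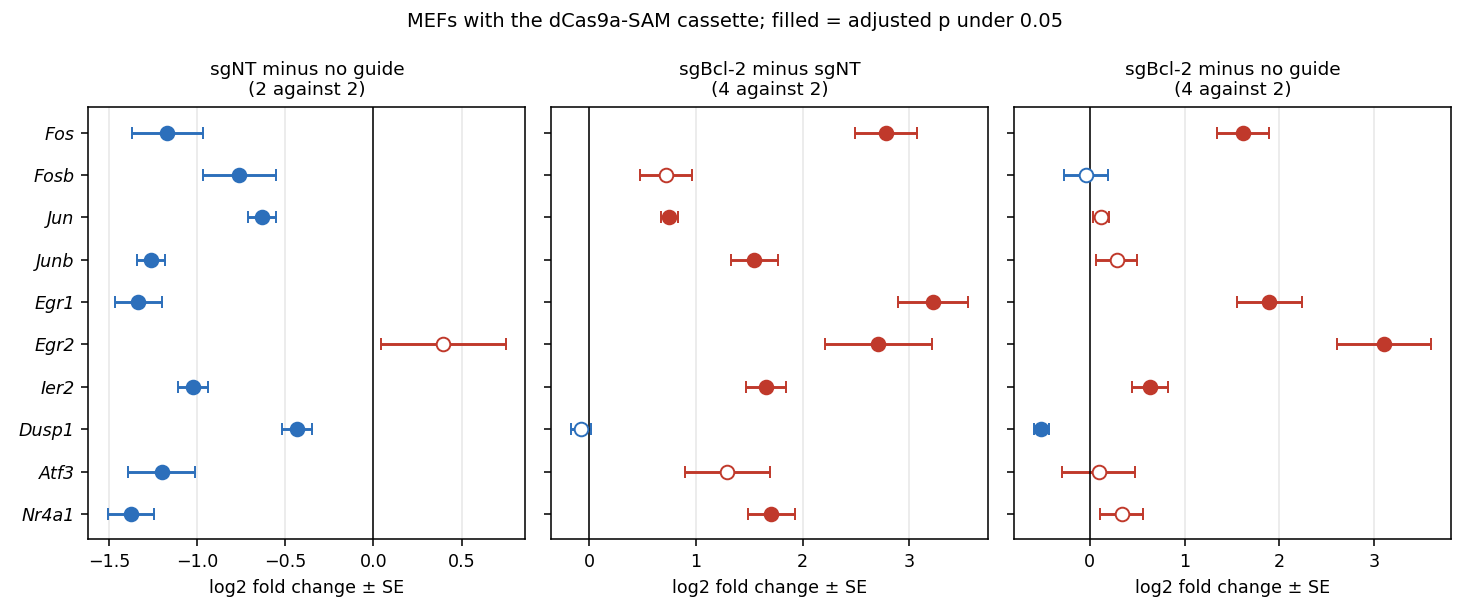
Log2 fold changes (points) with their standard errors (bars) of the 10 genes in 3 comparisons of knock-in MEFs; each panel has its own horizontal scale, and filled points passed the adjusted p of 0.05. The sgNT panel lies left of 0 for 9 genes, and in the right panel Jun, Junb, Nr4a1, Fosb and Atf3 lie close to 0 while Fos, Egr1, Egr2 and Ier2 stay to the right.

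The same split appears in the single libraries. Fos, Egr1, Egr2 and Ier2 were the 4 members for which all 4 sgBcl-2 libraries exceeded all 6 other MEF libraries, as 3.3% of 13392 genes did. For Ier2 the lowest sgBcl-2 library had 47.4 CPM and the highest other MEF library 40.5, and for Egr2 the gap was between 2.56 and 2.32, the latter in WT MEF 2. Without WT MEF 2 the same 4 members were apart, as were 5.49% of genes, and the highest other Egr2 level was 0.869 CPM. Conversely, Jun, Junb, Ier2, Atf3 and Nr4a1 were lower in both sgNT libraries than in all 8 other MEF libraries, as were 3.45% of genes. Without WT MEF 2, Fos and Egr1 joined these 5, as did 4.94% of genes.

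For most members the sgBcl-2 libraries of the 2 lines did not overlap. Fos, Junb, Egr1, Egr2, Ier2, Atf3 and Nr4a1 were higher in both libraries of line 2 than in both of line 1, as were 19.2% of 13034 genes. Bcl2 itself did not separate the lines, with 67.9 and 48.6 CPM in line 1 and 46.8 and 71.8 in line 2. The rise of Egr1 over sgNT was 2.66 in line 1 and 3.79 in line 2, and that of Nr4a1 was 1.45 and 1.96. A limma interaction term for the line, also added after the values had been seen, called 0 of the 10 members and 0% of 14676 genes, at an adjusted p of 1.00 for each member, on 2 residual degrees of freedom. Without adjustment, 5 of the 10 members and 519 of the 14676 genes were under 0.05, and the difference of Egr1 was 1.14 (SE 0.14) on the log2 scale.

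Against WT MEFs, which carry no cassette, none of the 10 members was called. In sgNT against WT MEFs, 0% of 14560 genes passed, with 589 genes and 2 members (Jun and Nr4a1) at an unadjusted p under 0.05. The members' adjusted p-values lay between 0.80 and 0.99. edgeR and limma-voom also called 0 genes and 0 members, while DESeq2 called 83 genes and 1 member, Atf3. In the no-guide against the WT MEFs, 0% of 14546 genes passed, with 1081 genes and 5 members at an unadjusted p under 0.05 and adjusted p-values of the members between 0.64 and 0.86. There edgeR and limma-voom called 0 members, and DESeq2 called 188 genes and 0 members.

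Atf3 made the WT MEFs unlike each other, with 5.14 CPM in WT MEF 1 and 76.2 in WT MEF 2, the highest level of any library. The summed level of 14 heat shock genes was 5529 and 11336 CPM in the same libraries, and the myeloid markers given above moved with it. Their part in the Atf3 level was not tested. Without WT MEF 2, 7 members were higher in the no-guide MEFs than in WT MEF 1 alone (Fos, Fosb, Junb, Egr1, Ier2, Dusp1 and Nr4a1), as were 16.8% of genes, and 2 were lower in the sgNT MEFs (Jun and Nr4a1), as were 4.67%. These fits assume that the lone WT library varies like the other groups. Without WT MEF 1, 7 and 6 of the 10 members were called, close to the 55.1% and 53.4% of all genes that were called in either direction. With the other MEF groups in the fit and WT MEF 2 left out, 3 members were higher in the no-guide MEFs (Fosb, Junb and Dusp1), as were 11.2% of genes, and 1 was lower in the sgNT MEFs (Jun), as were 3.17%.

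A list of 40 other immediate early genes was read beside the members. In sgBcl-2 over sgNT MEFs, 19 of the 38 tested were higher, where 6.61% of all genes were, and 1, the neuronal activity factor gene Npas4, was lower, where 4.24% were, with a median log2 fold change of 0.60. By adjusted p, the first that rose were Dusp6, which encodes an ERK phosphatase (0.93, SE 0.07, adjusted p = 0.0009), Bhlhe40 (1.81, SE 0.21) and Klf4 (0.77, SE 0.10), which encode transcription factors. In sgNT against no-guide MEFs, 23 of 39 were lower and 2 were higher, where 20.9% and 20.3% of all genes were, with a median of -0.51. Bhlhe40 (-1.40), the TGF-beta-induced Klf10 (-1.69) and Phlda1 (-1.28) led the lower ones, and Zfp36l1 (1.45) and Maff (0.89) were the 2 higher ones. Both comparisons use the same sgNT libraries. In sgBcl-2 against no-guide MEFs the list moved both ways, with 12 of 39 higher and 10 lower and a median of 0.12, where 19.8% and 19.5% of all genes were higher and lower.

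**Figure D3:**
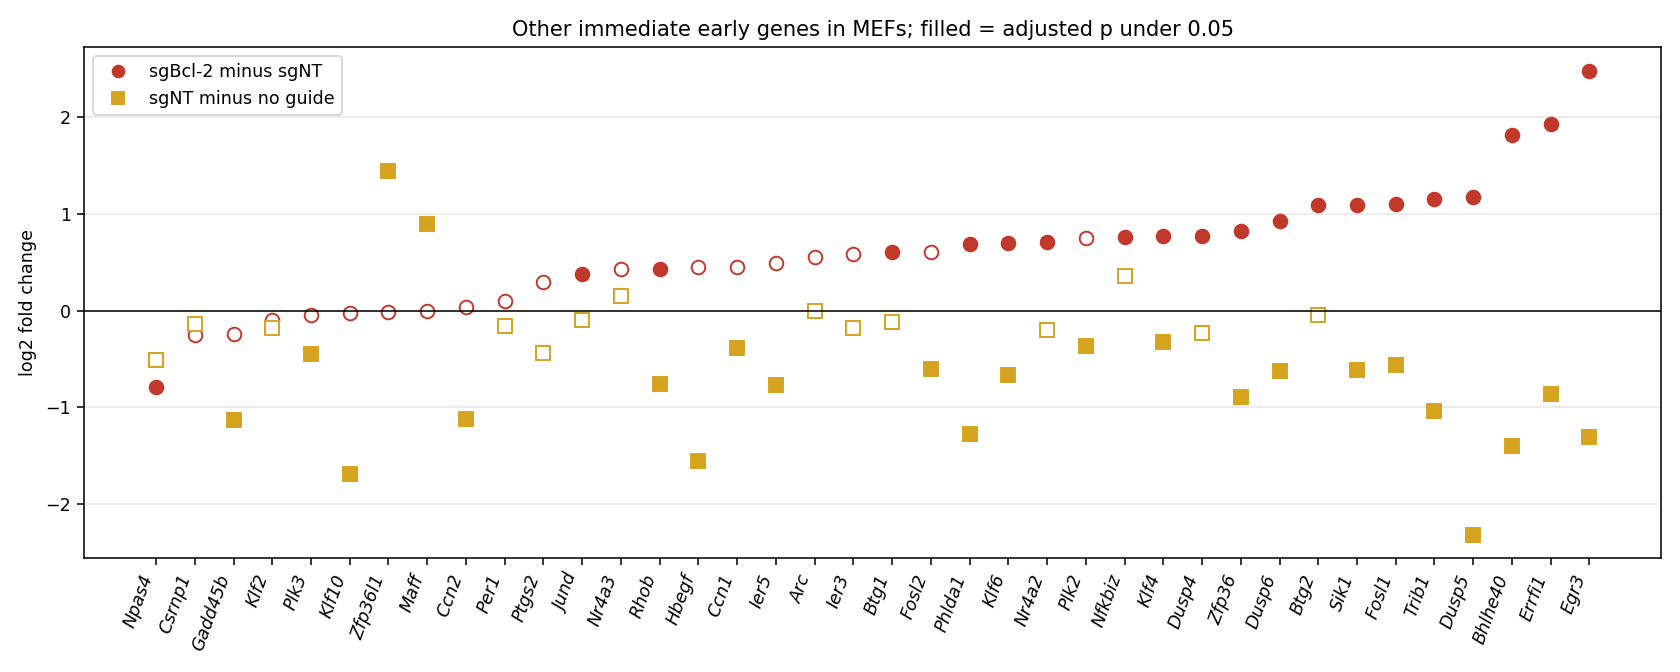
Log2 fold changes of the tested genes of the list of 40 other immediate early genes in 2 comparisons of MEFs that share the sgNT libraries, ordered by sgBcl-2 minus sgNT; filled symbols passed the adjusted p of 0.05. In sgBcl-2 over sgNT 19 genes are filled above 0 and Npas4 is filled below it.

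A list of genes of the signalling chain upstream was read in the same way. Of 28 genes for MAP kinases, SRF, its cofactors, CREB and Sprouty and Spred proteins, 2 rose with sgBcl-2 over sgNT, namely Spry2 (0.74, SE 0.10, adjusted p = 0.0061), itself a feedback inhibitor that the pathway induces, and Map2k2 (0.36), and 1 fell, the SRF cofactor gene Mrtfa (-0.30). These shares are near those of all genes (6.61% and 4.24%). Without a scaling factor 2 rose and 2 fell, and with RLE scaling 2 rose and 0 fell. In sgNT against no-guide MEFs 3 of the 28 were higher and 7 lower, with Srf at -0.32 (adjusted p = 0.013), where 20.3% and 20.9% of all genes were. Of 14 heat shock genes, listed because the cassette contains a part of HSF1, the inducible Hspa1b (2.27, SE 0.16) and Hspa1a (2.05, SE 0.16) were higher with sgNT than without a guide, together with Hsph1 (1.35), and Dnajb4 (-0.66) and Hspd1 (-0.48) were lower. The median of the 14 was 0.008, and 3 of 14 is close to the 20.3% of all genes that were higher. In sgBcl-2 against sgNT MEFs, 1 of the 14 was called, Hspa1b at -0.62 (adjusted p = 0.0499). There 4 were lower without a scaling factor and 0 with RLE scaling.

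In the B cell malignancies the comparison of the study was between the sgBcl-2 lymphoma lines and preB-ALL. Of the 10 members, 7 were lower in the 6 lines than in the 2 preB-ALL libraries (Fos, Fosb, Jun, Egr1, Egr2, Ier2 and Dusp1), where 22.5% of 13961 tested genes were lower, and none was higher, where 20.9% were. The median log2 fold change of the 10 was -3.67, against -0.07 over all genes. Without a scaling factor 31.5% of genes were lower and 12.1% higher, the median over all genes was -0.42, and 9 members were lower. These 7 and Nr4a1 were higher in both preB-ALL libraries than in all lines and tumours, as were 27.9% of 12364 genes.

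Egr1 was at 303 and 171 CPM in preB-ALL and between 0.797 and 12.2 in the lines, with a median of 3.21. It had the largest difference, a log2 fold change of -5.89 (SE 0.87, limma adjusted p = 0.00097). Fos was at 180 and 201 CPM in preB-ALL and between 0.996 and 19.1 in the lines (median 7.29), a log2 fold change of -4.82 (SE 1.13, adjusted p = 0.0095). Jun was at 163 and 416 against 1.74 to 22.7 (median 9.14), a log2 fold change of -4.57 (SE 0.86, adjusted p = 0.0033). None of the 3 genes overlapped between the groups.

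Egr2 was close to the limit of detection in the lines. IgM-positive lines 2 and 3 had 0 reads, IgM-positive line 4 and both IgM-negative lines had 1 read each and IgM-positive line 1 had 7, while preB-ALL had 87 and 21 reads (5.81 and 1.68 CPM). A count of 0 allows up to 3 reads, or 0.112 CPM in line 2 and 0.114 CPM in line 3. The log2 fold change of -4.15 depends on the pseudocount and was -1.81 with a pseudocount of 1, with the call kept (adjusted p = 0.0012 and 0.0017).

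Fosb was at 156 and 246 CPM in preB-ALL and ranged from 1.63 to 52.1 in the lines (median 14.9), with a log2 fold change of -3.601 (SE 1.24, adjusted p = 0.044). It was not called by edgeR (adjusted p = 0.060), nor without a low-count filter, nor without IgM-positive line 2 or 4 or IgM-negative line 2 (adjusted p = 0.053, 0.072 and 0.074). Dusp1 had 33.2 and 51.4 against 0.195 to 6.08 CPM (-3.74, SE 1.05, adjusted p = 0.020), and Ier2 86.7 and 80.2 against 14 to 37.5 (-1.34, SE 0.39, adjusted p = 0.024). Junb (83.8 and 118 against 38.1 to 63.5), Nr4a1 (52.6 and 45.5 against 16.5 to 37.5) and Atf3 (1.74 and 9.14 against 0.129 to 3.87) did not pass the test, with adjusted p-values of 0.082, 0.062 and 0.21. Junb and Nr4a1 did pass with DESeq2, without a scaling factor, with RLE scaling and without IgM-positive line 2.

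Only the calls of Egr1 and Egr2 were kept when either leukaemia library was left out, and no member changed sign under any alternative. Without CreERLSLErg 3 members were lower (Jun, Egr1 and Egr2), where 17.7% of genes were, and without RagCreErg 2 were (Egr1 and Egr2), where 12.8% of genes were. The cells, the drivers (BCR-ABL1 against Eµ-Myc with sgBcl-2), the RNA kit, the sequencing labels, the cassette and IL7 all differed between preB-ALL and the lines. These differences cannot be told apart. Fibroblast markers moved with the comparison, as given above, and their part in it was not tested.

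Of the 40 other immediate early genes, 20 of the 38 tested were lower in the lines than in preB-ALL, where 22.5% of all genes were, and 0 were higher, with a median log2 fold change of -2.25. The first by adjusted p were Dusp4, which encodes another MAP kinase phosphatase (-4.96), the matricellular gene Ccn1 (-7.87), which fibroblasts express strongly, and the AP-1 gene Fosl1 (-3.89). Of the 28 upstream genes 4 were higher, led by the ETS factor gene Elk4 (1.42), and 7 lower, led by the feedback inhibitor gene Spry4 (-5.68), and without a scaling factor 1 was higher and 13 were lower. Of the 14 heat shock genes 7 were higher in the lines and 0 lower, where 20.9% and 22.5% of all genes were, and without a scaling factor 6 were higher and 2 lower. The first by adjusted p was Hspa8 at 2.55 (SE 0.23, adjusted p = 4.8e-05).

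Set against the sgBcl-2 MEFs, which carry the same cassette and an sgBcl-2 guide in another cell type, 9 members were lower in the lines, where 45% of 14620 tested genes were lower and the median over all genes was -0.27. Egr1 (-6.06, SE 0.63), Dusp1 (-5.64, SE 0.73), Egr2 (-5.24, SE 0.46) and Jun (-4.26, SE 0.58) differed most, with adjusted p-values from 1.37e-06 to 5.14e-05. The Egr2 value, against 0 to 7 reads per line, depends on the pseudocount and ranged from -6.78 to -2.64 over the alternatives, with the call kept. Jun, Egr1 and Dusp1 were also higher in all 10 MEF libraries than in all 8 lymphoma lines and tumours, as were 29.5% of 13691 genes, and the same 3 were without WT MEF 2, as were 31.8%. Nr4a1 (-1.72), Junb (-1.50) and Ier2 (-1.36) differed less, and Atf3 was lower by a log2 fold change of -3.20. Ier2 lost its call when all 10 MEF libraries were taken (-0.64, adjusted p = 0.076) and when WT MEF 2 was left out of these (adjusted p = 0.065).

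Fosb went against the others. It was at 2.2, 3.09, 2.91 and 3.94 CPM in the sgBcl-2 MEFs and at 47.5, 22.9, 1.63, 5.58, 52.1 and 6.98 in IgM-positive lines 1 to 4 and IgM-negative lines 1 and 2. It exceeded every MEF library in 5 of the 6 lines, and IgM-positive line 3 lay below the sgBcl-2 MEFs. The log2 fold change was 1.86 (SE 0.90, adjusted p = 0.078), which was not called by limma or limma-voom but was called by edgeR (2.73, adjusted p = 0.019), DESeq2 (2.55), without IgM-positive line 3 (2.43, adjusted p = 0.0091) and against all 10 MEF libraries (2.13, adjusted p = 0.0029). Fos, by contrast, was lower in the lines by a log2 fold change of -2.58 (SE 0.83, adjusted p = 0.014), and lost this call when all 10 MEF libraries were taken (adjusted p = 0.15) and when WT MEF 2 was left out of these (adjusted p = 0.094).

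**Figure D4:**
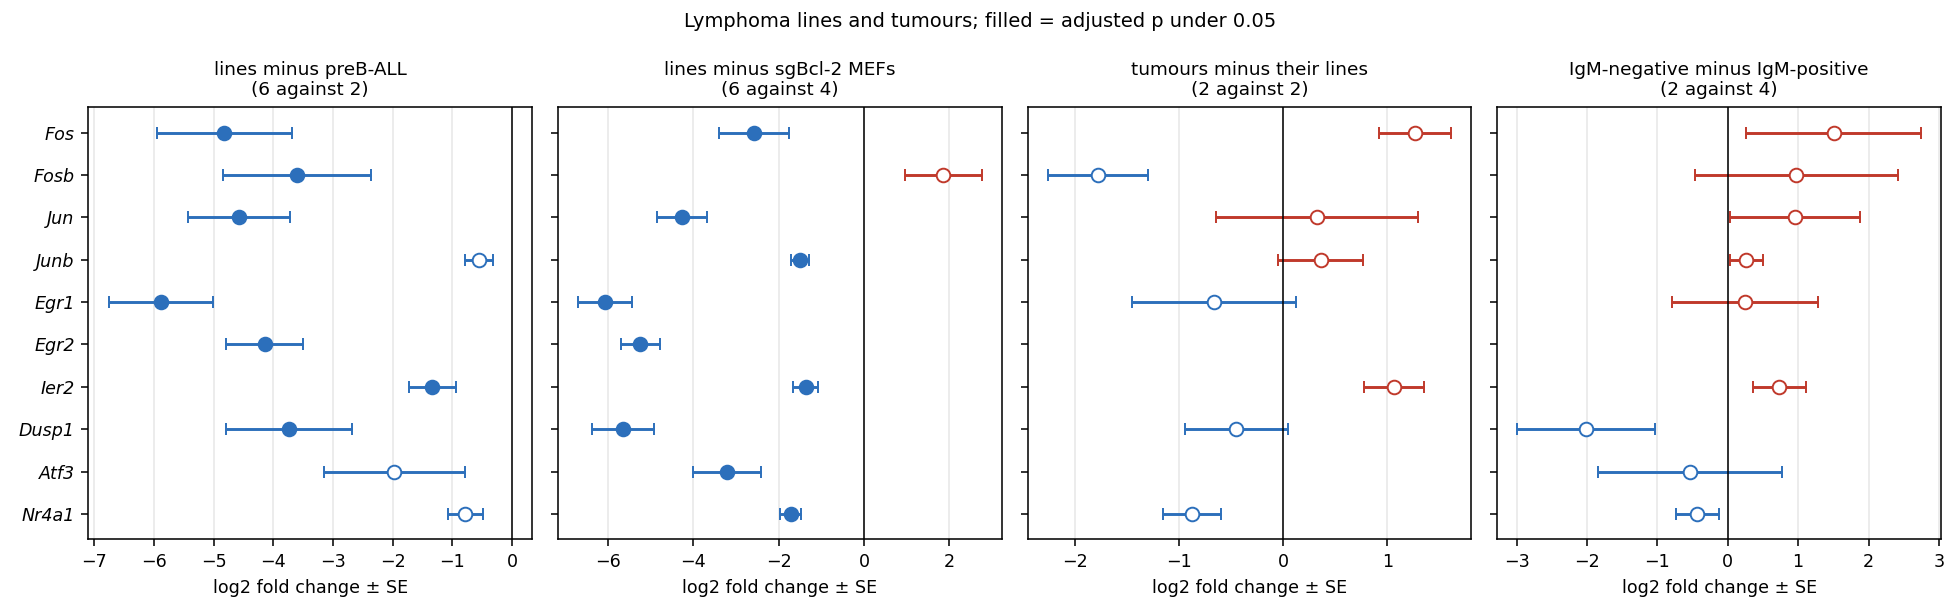
Log2 fold changes (points) with standard errors (bars) of the 10 genes in 4 comparisons of lymphoma lines and tumours. Each panel has its own horizontal scale, filled points passed the adjusted p of 0.05, and a gene without a point was not tested. Against preB-ALL all points lie left of 0, against the sgBcl-2 MEFs Fosb alone lies right of 0, and the 2 right panels hold no filled point.

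The lines varied widely among themselves for some members and little for others. Fos spanned 0.996 CPM in IgM-positive line 4 to 19.1 in IgM-negative line 1, Fosb 1.63 in IgM-positive line 3 to 52.1 in IgM-negative line 1, and Jun 1.74 in IgM-positive line 4 to 22.7 in IgM-negative line 1. Junb spanned only 38.1 to 63.5 CPM, Ier2 14 to 37.5 and Nr4a1 16.5 to 37.5. IgM-positive lines 1 and 2 and IgM-negative line 1 were the 3 highest for Fos, for Fosb and for Jun. Across the 6 lines Pearson's r with Fos was 0.92 for Fosb, 0.86 for Jun and 0.87 for Egr1, but 0.13 for Junb and -0.34 for Ier2. Dusp1 ran opposite to Jun, with a Spearman rho of -1. These correlations are over 6 libraries that share a genotype, and are given as descriptions.

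Between the 2 IgM-negative and the 4 IgM-positive lines none of the 9 tested members was called, where 0.597% of 12386 genes were, and none had an unadjusted p under 0.05. edgeR, DESeq2 and limma-voom called 0 members as well. Egr2 was too low to be tested. The widest estimates were Dusp1 at -2.01 (SE 0.98) and Fos at 1.503 (SE 1.24). Their IgM-negative values were 0.195 and 2.89 CPM for Dusp1 and 19.1 and 5.39 CPM for Fos, within or below the IgM-positive range of 2.14 to 6.08 for Dusp1 and partly above that of 0.996 to 14.9 for Fos.

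The primary tumours were set against IgM-positive lines 1 and 2, from the same mice. None of the 8 tested members was called, where 0.33% of 12719 genes were, and 4 had an unadjusted p under 0.05, as 25.9% of all genes did. Fos was at 28.9 and 29.7 CPM in the tumours and at 14.9 and 9.18 in these lines (log2 fold change 1.27, SE 0.35, adjusted p = 0.12). Ier2 was at 31.4 and 38.6 against 18.4 and 14 (1.06, SE 0.29, adjusted p = 0.12). Fosb had the opposite sign, with 12 and 8.08 CPM in the tumours against 47.5 and 22.9 in the lines (-1.78, SE 0.48, adjusted p = 0.12), and Nr4a1 likewise with 16.2 and 18.1 against 24.7 and 37.5 (-0.87, SE 0.28, adjusted p = 0.15). For these 4 of the 10 members the groups did not overlap, as was so for 57.3% of all genes in either direction.

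Jun was at 46.3 in primary tumour 1 and at 6.58 in primary tumour 2, on both sides of the 11.1 and 16.5 CPM of the lines. DESeq2 called Fos, Fosb and Ier2 and 16.5% of all genes, and edgeR and limma-voom called 0 members. The paired analysis depends on which label is right. With the mouse numbers of the titles as a replicate block Fos, Fosb and Ier2 were called, 3 of the 8 tested, with 28.3% of all genes, and with those of the descriptions 0 members and 0 genes were. With all 6 lines in place of the 2, the values were 2.40 for Fos, 0.36 for Ier2 and -0.42 for Fosb, with adjusted p-values from 0.18 to 0.83. With all 4 IgM-positive lines the limma adjusted p of Fosb was 0.98, and its log2 fold change ranged from -2.36 to -0.05 over the alternatives. Markers of other cells were read beside these values. Myeloid markers summed to 42.7 and 34.9 CPM in the tumours against 13.9 and 6.18 in the lines, and their part in the levels was not tested. The fibroblast sums overlapped, with 221 and 26.5 against 6.12 and 88.2 CPM, and were mostly Thy1 (169 and 12.8 CPM in the tumours) and Sparc (47.8 and 9.53), while the collagen gene Col1a2 was at 0.57 and 0.698 in the tumours and 0.689 and 1.69 in the lines. The B cell markers, which lymphoma cells carry themselves, summed to 5445 and 5754 against 2084 and 2076 CPM.

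Since AP-1 is built from pairs, the make-up of the family was described from levels per length (CPM per kilobase of exon), with Fosl1, Fosl2 and Jund of the list of other immediate early genes added to the 4 members. Jund, the constitutive member, was the largest in every library, with 45.6% ± 6.7 (SD, n = 10) of the summed level in MEFs and 69.7% ± 3.5 (SD, n = 6) in the lines. The MEF values here pool all MEF groups, so their SD includes differences between these groups. Jun took 14.6% ± 1.7 in MEFs and 2.38% ± 1.5 in the lines, without overlap (10.6% or more against 4.31% or less), whereas Junb took 18.4% ± 5.3 and 21.2% ± 3.5. Fosl2 took between 13.1% and 17.6% in MEFs and at most 0.345% in the lines. The summed level was between 201 and 387 CPM per kilobase in MEFs and between 117 and 175 in the lines. Without WT MEF 2 the MEF shares were 44.6% for Jund, 14.7% for Jun and 19.1% for Junb (n = 9).

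The transcripts on the Fos side differed between the cells, while proteins and their pairs were not measured. In MEFs the mean shares were 15% for Fosl2, 3.81% for Fosl1, 2.33% for Fos and 0.248% for Fosb. Per kilobase, Fosb was between 0.0422 and 0.502 of the Fos level in MEFs (at most 0.298 without WT MEF 2) and between 0.722 and 3.12 of it in the lines, where it exceeded Fos in IgM-positive lines 1, 2 and 4 and IgM-negative line 1. In the tumours the ratio was 0.231 and 0.152, and in preB-ALL 0.483 and 0.683. Fos reached 23.2% and 13.6% of the summed level in preB-ALL and at most 7.63% elsewhere, that maximum being primary tumour 1. Within MEFs, Fos took 3.13% to 5.39% in the sgBcl-2 libraries and 0.497% to 1.65% in the others (0.839% or more without WT MEF 2). Junb took 19.1% to 25.4% in the sgBcl-2 and 21.4% and 22.5% in the no-guide libraries, which lie in the same range, against 12.5% to 13.1% in the sgNT and WT libraries.

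**Figure D5:**
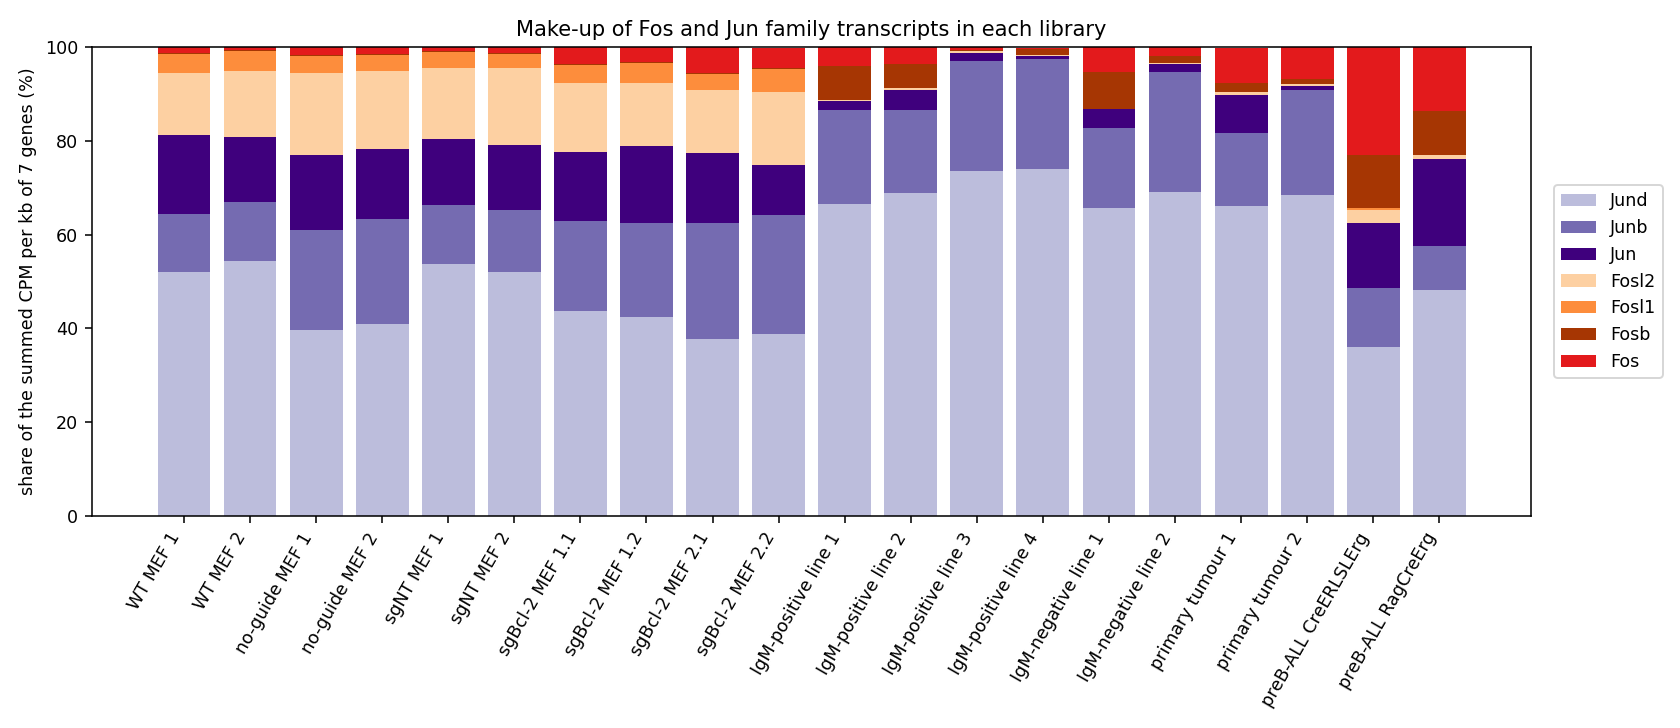
Share of each of 7 Fos and Jun family genes (colours) in their summed CPM per kilobase of exon, 1 bar for each of the 20 libraries. Jund is the largest share in every bar, Jun and Fosl2 are wide in the MEFs and narrow in the lymphoma lines, and Fos and Fosb are widest in preB-ALL.

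Finally, the genes most like Fos and Egr1 over all 20 libraries were listed by Pearson's r of log2(CPM + 0.1) among 13780 genes. Nearest to Fos were Zfp36 (0.89), the gene of an mRNA-destabilising protein that is itself an immediate early gene, Hdac6 (0.86), Egr3 (0.84), Hsd11b1 (0.81) and Pnp2 (0.81). Nearest to Egr1 were Tnfsf11 (0.94), Il1rn (0.92), Nmnat2 (0.91), Tle2 (0.91) and Lrrn3 (0.90). Among the members themselves, r with Fos was 0.68 for Ier2, 0.68 for Egr1 and 0.66 for Fosb, and 0.05 for Dusp1 and 0.10 for Atf3. With Egr1, Egr2 ranked 8 of all genes (0.90), followed among the members by Jun (0.86) and Nr4a1 (0.85), and Fosb was at 0.08. The libraries share cell types and lines, so these values mostly compare MEFs, lymphomas and leukaemias and carry no test.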

How the data were processed

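RNA-seq of 10 MEF, 6 lymphoma line, 2 primary tumour and 2 preB-ALL libraries was analysed, with groups taken from the labels. The authors aligned reads with Rsubread to GRCm38 (mm10) and deposited CPM per Entrez gene, unfiltered and not on a log scale. Strand use in counting was not given in the sources used here. Each value is a whole multiple of 1 read (100% of values within 0.01 of a whole number), so reads were recovered from the CPM. Symbols matched 25242 of 25869 identifiers in the RefSeq gene table (GRCm38.p6). Exon lengths came from GENCODE M21.

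Genes were filtered by filterByExpr (edgeR 4.0.16), CPM were TMM-scaled, and limma 3.58.1 (lmFit, eBayes with trend) was run on log2(CPM + 0.1) of the libraries compared, in R 4.3.3, with Benjamini-Hochberg adjustment over all tested genes and a threshold of 0.05. Fold changes are on that scale, which understates those of low genes. Alternatives were edgeR and DESeq2 1.42.0 on recovered reads, limma-voom, other scalings, pseudocounts of 0.5 and 1, no filter, each replicate left out, other sets of libraries (those without WT MEF 2 added after seeing the data) and the MEF line or mouse as a replicate block. The code was tested on simulated data.

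The pairing of knock-in MEFs comes from the line numbers of the labels, for libraries of the same MEF lines. The line 1 minus line 2 differences correlated across 15158 genes at 0.33 between sgNT and sgBcl-2, -0.05 between no guide and sgNT and -0.13 between no guide and sgBcl-2. The study calls the 2 MEF lines of the WT and of the sgNT group independent. For the 2 sgBcl-2 libraries of a line and the other groups no such statement was found, so p-values measure the spread between these libraries, which may be partly technical. The 2 sgBcl-2 libraries of a line may be different guides or repeat cultures, so the spread over the 4 mixes line with either of these.

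Named are the 10 members, up to 3 called genes per direction, comparison and list by adjusted p, and the 5 genes most correlated with Fos and with Egr1 (mean of at least 1 CPM). The members and lists were chosen with earlier results of these data known. The lists hold 40 other immediate early, 28 upstream and 14 heat shock genes, and markers of fibroblasts, B, myeloid, T, endothelial and erythroid cells. Figures were drawn with matplotlib 3.10.9.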

Additional observations from a re-analysis of the deposited data

Results flagged for a closer look

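The highest or lowest library was tested in 30 groups of values (10 members in the 4 sgBcl-2 MEFs, the 4 IgM-positive lines and all 6 lymphoma lines) for a gap to its neighbour that is wide against the range of the group. Chance gives about 1 such gap in 20 groups, and 2 were found, both of them IgM-positive line 1 among the 6 lymphoma lines. Egr1 was at 12.2 CPM in that line and between 0.797 and 3.97 in the other 5 lines, a gap of 0.722 of the range. Its relative Egr2 was at 0.284 CPM in that line, which is 7 reads, and between 0 and 0.0498 in the others, a gap of 0.825 of the range.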

How the results depend on the processing

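Of the 87 log2 fold changes of members over all comparisons, 14 changed sign under at least 1 alternative, none of them called. They were 4 in sgNT against WT MEFs (Fos, Fosb, Egr1 and Egr2), 1 in no-guide against WT MEFs (Atf3), 3 in IgM-negative against IgM-positive lines (Fosb, Egr1 and Atf3), 3 in tumours against lines (Jun, Junb and Egr1), and the following 3. With each library left out in turn, Dusp1 in sgBcl-2 against sgNT MEFs ranged from -0.19 to 0.036 (0.036 without sgNT MEF 2), Fosb in sgBcl-2 against no-guide MEFs from -0.17 to 0.10 (0.10 without sgBcl-2 MEF 1.1 and 0.024 without no-guide MEF 1), and Atf3 there from -0.23 (without sgBcl-2 MEF 2.2) to 0.29. The causes of these and the following differences were not tested, except that leaving out a library leaves fewer samples. Depth limits Egr2 in the lymphoma lines most, which rests on 0 to 7 reads per line.

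With each library left out in turn, the members called ranged from 4 to 8 in sgBcl-2 against sgNT MEFs (4 without sgNT MEF 1), from 0 to 6 in sgNT against WT MEFs, from 0 to 7 in the no-guide against WT MEFs and from 2 to 8 in lines against preB-ALL. The genes called ranged from 156 to 1638 in sgBcl-2 against sgNT MEFs (156 without sgNT MEF 1, 198 without sgNT MEF 2 and 960 without sgBcl-2 MEF 1.1), from 0 to 8424 in sgNT against WT MEFs (3 without sgNT MEF 1, 8424 without WT MEF 1 and 1644 without WT MEF 2), from 0 to 8581 in no-guide against WT MEFs (8581 without WT MEF 1 and 4712 without WT MEF 2), from 2742 to 5905 in sgBcl-2 against no-guide MEFs (2742 without no-guide MEF 2 and 3160 without no-guide MEF 1), from 3177 to 6061 in lines against preB-ALL (3177 without RagCreErg), from 35 to 117 in IgM-negative against IgM-positive lines (35 without IgM-positive line 1 or 4, 48 without IgM-positive line 2 and 117 without IgM-negative line 2), and were 0 in each such fit of tumours against lines.

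DESeq2 called 83 genes and 1 member in sgNT against WT MEFs, 188 genes in no-guide against WT MEFs, 749 in IgM-negative against IgM-positive lines, and 2100 genes and 3 members in tumours against lines. In IgM-negative against IgM-positive lines edgeR called 24 genes, limma-voom 1 and a pseudocount of 1 left 47, against 74. In tumours against lines edgeR, limma-voom, RLE scaling and no filter each called 0 genes and no scaling factor 79, against 42, while all 4 IgM-positive lines gave 1418 and all 6 lines 2579. With all 10 MEFs in the fit, 68 genes were called in sgNT against WT MEFs, 64 in sgBcl-2 against sgNT MEFs, 717 and 1 member (Dusp1) in no-guide against WT MEFs, and 901 and 4 members in sgNT against no-guide MEFs. In the same fits without WT MEF 2, added after seeing the data, 1060 genes and 1 member, 2214 and 8, 3423 and 3, and 5376 and 8 were called. Against preB-ALL, 3668 genes were called when the primary tumours replaced IgM-positive lines 1 and 2.

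In the paired fits, the MEF line as a replicate block called 2148 genes and 7 members in sgBcl-2 against sgNT MEFs, 5403 genes and 9 members in sgNT against no-guide MEFs, and 5415 genes and 5 members in sgBcl-2 against no-guide MEFs. The same block called 0 genes in both comparisons with WT MEFs, whose libraries share only a number with the knock-in lines, so that it pairs nothing there. The libraries of each line summed, with the replicate block, gave 2654 genes in sgBcl-2 against sgNT MEFs. In tumours against lines, the mouse number of the titles as a replicate block called 3600 genes and 3 members, and that of the descriptions 0.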
